A study of Mus musculus with 59 samples.

Results

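Immediate early response genes are transcribed within minutes of a stimulus, without new protein synthesis, and their mRNAs are short-lived. Growth factors and stress act through the ERK, JNK and p38 kinases on factors already bound at the promoters, chiefly SRF with its ELK partners and the CREB and ATF family. Most of the products are transcription factors, and others, such as DUSP1 and ZFP36, switch the signal or the mRNAs off again. Because handling of tissue can induce them, they also serve as a sign of what cells met during dissection. Of the 22134 genes with a listed transcript, 10 members of this class were followed by symbol in 14 RNA-seq libraries of single mouse epiblasts: Fos, Fosb, Jun, Junb, Egr1, Ier2, Atf3, Dusp1, Zfp36 and Myc. For each gene the transcript with the highest mean count over the libraries stands for the gene. The question was whether Fos differed between knockout and control epiblasts alone or together with the other members, in each of 2 crosses and in each embryo.

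Each library came from the epiblast of 1 embryo at E6.25, shortly before gastrulation, from matings of heterozygous mice. In the Ehmt2 cross, 4 Ehmt2-/- epiblasts, which lack the histone H3 lysine 9 methyltransferase G9a, were compared with 4 controls. The conditional Ehmt2 allele had been bred with a reporter line that carries the transgene ΔPE-Pou5f1-EGFP. In the Ezh2 cross, 3 Ezh2-/- epiblasts, which lack the H3 lysine 27 methyltransferase EZH2, were compared with 3 controls. The controls are labelled as wild type, whereas the study's methods also admit heterozygotes, so a control may carry 1 mutant allele. The deletions were constitutive in the embryo, so extraembryonic tissues lacked the gene as well. The embryos came from 4 and 3 litters, and the sources used here do not tie litters to libraries. In bulk epiblast RNA, fewer cells with a transcript and less transcript per cell cannot be told apart.

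Libraries held 30161171 to 68464895 counts over all transcripts, and 12495094 to 28434545 with 1 transcript per gene. Isoforms could carry the same counts, as for Myc below, so the totals over all transcripts can hold a read more than once. CPM levels are relative to such totals. A floor of 3 counts corresponded to between 0.0484 and 0.0966 CPM. CPM is edgeR's count relative to the library size after TMM scaling. Ehmt2 transcript levels were 10.3, 11.1, 15.5 and 32.7 CPM in controls and 4.73, 4.47, 3.22 and 9.46 CPM in knockouts of its cross, and Ezh2 levels were 53.4, 67.2 and 112 against 11.8, 12.0 and 16.6 CPM. All 7 epiblast markers had reads in every library. Their summed level was 2357 to 2701 CPM in Ehmt2 controls and 1390 to 2087 CPM in Ehmt2-/- epiblasts, and 2360 to 2585 against 1904 to 2506 CPM in the Ezh2 cross. The 9 extraembryonic ectoderm markers summed to between 21.1 and 125 CPM in Ehmt2 controls and to 318, 88.7, 107 and 21.3 CPM in knockouts 1 to 4. Eomes, which the epiblast also expresses before gastrulation, was the most abundant of the 9, at a mean of 71.1 CPM over all epiblasts. Of the 7 tested in the Ehmt2 cross, 5 were called higher in knockouts by edgeR: Elf5 (log2 fold change 6.03, adjusted p = 0.0114), Esrrb (5.33, adjusted p = 0.00310), Sox21 (4.28, adjusted p = 0.0468), Tfap2c (3.80, adjusted p = 0.0119) and Bmp4 (3.20, adjusted p = 0.0167). Elf5, a defining factor of that tissue, had 0.196, 0.444, 0.525 and 0 CPM in controls and 59.6, 5.79, 12.0 and 0 CPM in knockouts. Knockout 4 had no read of Elf5, Tfap2c or Sox21, whereas its Esrrb and Bmp4 levels were 1.08 and 4.23 CPM against 0.0180 and 1.23 CPM in control 4. Esrrb and Bmp4 also met the per-embryo rule given further on, and Esrrb did so in the Ezh2 cross, where none of the 6 tested was called. Visceral endoderm markers, 10 genes, summed to between 0.703 and 32.9 CPM in the Ehmt2 cross, but to 408 CPM in Ezh2 control 2 and 906 CPM in Ezh2 knockout 1, against 5.09 to 14.2 CPM in the other Ezh2 libraries. Decidua markers, 4 genes, summed to between 2.45 and 33.7 CPM, and blood markers stayed between 0.42 and 2.80 CPM. The most abundant genes of the epiblast, visceral endoderm, decidua and blood lists were Dnmt3b, Cubn, Prl8a2 and Alas2, and 0 genes of these lists were called in either cross. The part of these tissues in the results below was not tested. Replicate 4 of the Ehmt2 cross stood apart from replicates 1 to 3. The chi-square of its counts against a library of the same genotype, divided by the degrees of freedom, was 156 to 206, whereas replicates 1 to 3 gave 17.7 to 33.2 among themselves, and a term for these sets was kept in the fit.

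The promoter windows of Fos, Fosb and Dusp1 are shown because these members are an AP-1 subunit whose groups did not overlap in the Ehmt2 cross, its close relative that was high in 1 epiblast of each cross, and a feedback phosphatase. Windows run from 250 bases before to 50 bases after the RefSeq start in GRCm38.p6, and 7 of the 10 members have one in the table used. Capitals mark letters that were searched on both strands: TATAAA, the CRE TGACGTCA, the AP-1 site TGACTCA and the CArG box that SRF recognises. Fos lies on the forward strand at chr12:85473640-85473939. Fosb is on the reverse strand at chr7:19309996-19310295, and Dusp1 on the reverse strand at chr17:26508423-26508722.
Fos: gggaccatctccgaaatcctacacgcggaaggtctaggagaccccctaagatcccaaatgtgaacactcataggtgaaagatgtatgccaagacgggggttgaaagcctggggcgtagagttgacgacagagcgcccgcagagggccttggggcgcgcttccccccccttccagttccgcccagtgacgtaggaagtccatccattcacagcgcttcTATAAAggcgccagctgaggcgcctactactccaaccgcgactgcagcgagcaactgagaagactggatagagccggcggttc
Fosb: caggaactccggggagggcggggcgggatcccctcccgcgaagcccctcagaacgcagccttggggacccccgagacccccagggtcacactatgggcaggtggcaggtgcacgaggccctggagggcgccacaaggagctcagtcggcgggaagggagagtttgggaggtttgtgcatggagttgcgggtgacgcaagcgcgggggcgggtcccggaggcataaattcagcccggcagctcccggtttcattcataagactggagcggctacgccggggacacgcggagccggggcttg
Dusp1: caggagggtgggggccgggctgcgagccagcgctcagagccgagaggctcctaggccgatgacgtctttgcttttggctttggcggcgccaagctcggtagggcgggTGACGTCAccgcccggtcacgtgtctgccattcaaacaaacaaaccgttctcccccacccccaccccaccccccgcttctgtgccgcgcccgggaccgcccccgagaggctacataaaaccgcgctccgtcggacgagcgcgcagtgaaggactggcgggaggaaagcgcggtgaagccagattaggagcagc
In the Fos window, TATAAA lay at bases -33 to -28 relative to the start, and in the Dusp1 window TGACGTCA lay at bases -143 to -136. No searched letters were found in the Fosb window. Only full matches within the windows were searched, so variant sites and sites farther from the start would be missed. Among the other members searched, Zfp36 held a CArG box at bases -58 to -49, and Jun and Atf3 held none of the motifs. Junb held TATAAA at bases 1 to 6, at the start itself and not before it as in Fos. Of all 32851 RefSeq windows of this length, 13.6% held TATAAA, 1.79% TGACGTCA, 5.20% the AP-1 site and 1.63% a CArG box.

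Per kilobase of transcript, Myc was the most abundant member in every group, with 16.7 ± 2.50 CPM per kb (SD, n = 4) in Ehmt2 controls and 17.8 ± 2.34 (n = 3) in Ezh2 controls. Ier2, Dusp1 and Zfp36 followed in Ehmt2 controls at 5.49, 4.47 and 3.79 CPM per kb, then Jun at 1.44, Egr1 at 1.09 and Fosb at 0.867. Junb at 0.289, Fos at 0.173 and Atf3 at 0.0556 CPM per kb came last. Ier2 and Dusp1 differed by less than the larger of their SDs, as did each pair of neighbours from Jun downwards. In Ehmt2-/- epiblasts Fos stood seventh at 0.874 ± 0.094 CPM per kb (n = 4), and it differed from its neighbours in that order, Jun and Junb, by less than the larger SD of each pair.

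**Figure D1:**
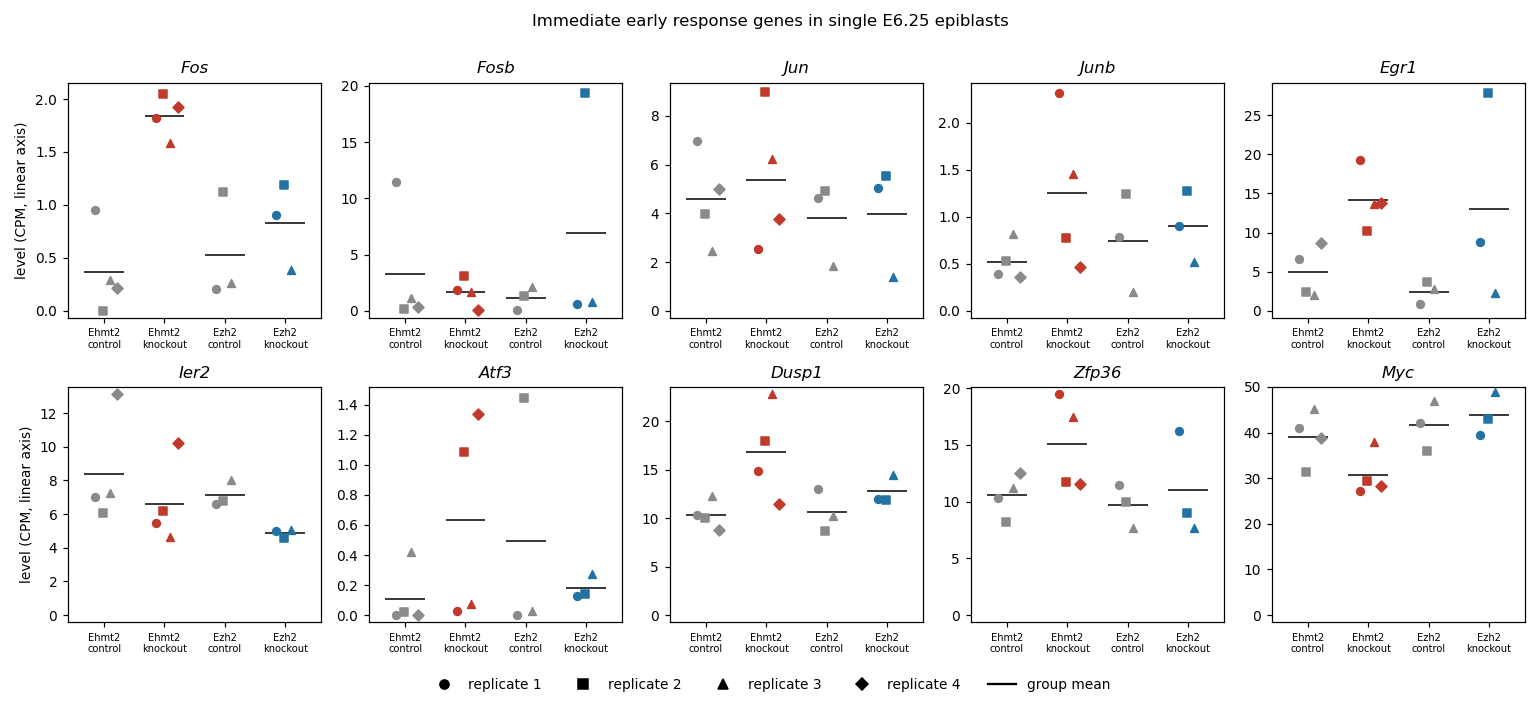
Level of each member in every epiblast, in CPM on a linear axis, with 1 panel per gene and each symbol shape 1 replicate number; black lines are group means. Fos in the 4 Ehmt2-/- epiblasts sits between 1.58 and 2.05 CPM, above all 4 controls, whereas Fosb is high in 1 control of the Ehmt2 cross and in 1 knockout of the Ezh2 cross.

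In Ehmt2-/- epiblasts Fos and Egr1 were the members whose knockout and control values did not overlap, and in both the knockouts were higher. None of the 9 members tested in the Ehmt2 cross passed edgeR's quasi-likelihood test (adjusted p under 0.05 with a log2 fold change beyond 1.4), against 0.851% of the 13749 genes tested. Without adjustment, 5 of the 9 had p under 0.05, namely Fos, Egr1, Dusp1 and Zfp36 with higher and Myc with lower values, against 15.4% of all genes. By DESeq2, 1 member, Egr1, passed both thresholds, against 2.12% of all genes. In the Ezh2 cross 0 of 9 members passed by edgeR or by DESeq2, against 0.00714% of 14010 genes by edgeR and 0.507% by DESeq2, and 2 had an unadjusted p under 0.05 by edgeR, Egr1 with higher and Ier2 with lower values, against 8.89%. Atf3 did not pass the filter on low counts in either cross. The median log2 fold change of the 9 members was 0.51 in the Ehmt2 cross and 0.26 in the Ezh2 cross, beside 0.01 and 0.03 over all genes tested.

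**Figure D2:**
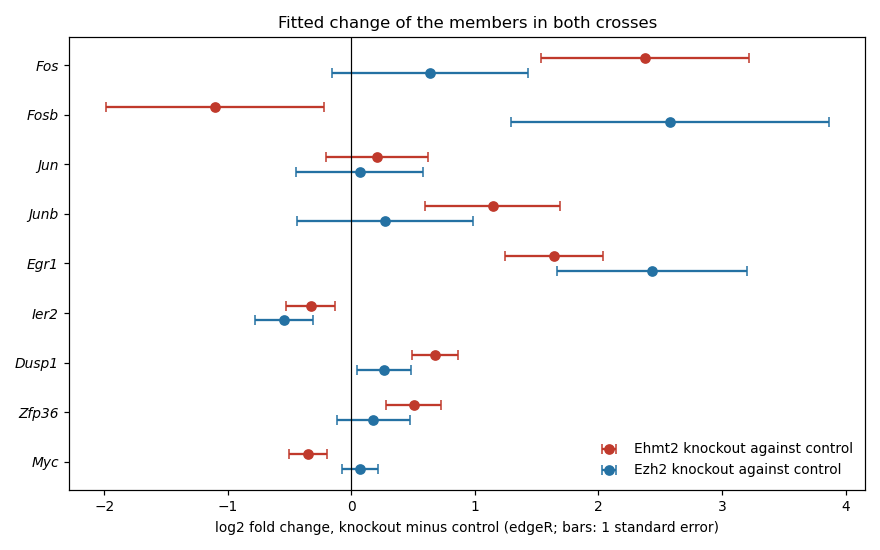
Log2 fold change of the 9 tested members, knockout minus control, with bars of 1 standard error from edgeR; red is the Ehmt2 cross and blue the Ezh2 cross. Fos and Egr1 have the largest positive estimates in the Ehmt2 cross, Fosb and Egr1 in the Ezh2 cross, and Fosb lies on opposite sides of 0.

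Fos encodes the AP-1 subunit that pairs with a JUN protein. Its transcript (ENSMUST00000021674, chromosome 12 from 85473890 to 85477273, 4 exons, GRCm38) had 0.955, 0, 0.289 and 0.216 CPM in the Ehmt2 controls and 1.82, 2.05, 1.58 and 1.92 CPM in the knockouts, in the order of replicates 1 to 4 that all lists below follow. These were 39, 0, 11 and 12 counts against 65, 72, 62 and 119 counts. Control 2, with a count of 0, could hold up to 0.0635 CPM, the level of 3 counts, an allowance for counting error only. Every knockout was above every control, and the mean was 1.84 ± 0.20 CPM (SD, n = 4) in knockouts against 0.365 ± 0.412 CPM in controls. The log2 fold change was 2.38 (SE 0.84) and did not pass (edgeR, adjusted p = 0.283). The CPM values gave p = 0.0286 in an exact two-sided permutation test, unadjusted and as small as 4 against 4 allows. This test exchanged epiblasts over the whole cross, although replicate 4 stood apart, so its p ignores the sets that the fit keeps. Over the other edgeR settings the adjusted p of Fos was between 0.176 and 0.564, and with DESeq2 it was 0.0708. The study lists Fos among the transcripts it found raised in these same libraries, so these values are not independent evidence on it. Fos was at 1.92 CPM in knockout 4, which had no read of Elf5, Tfap2c or Sox21 but more Esrrb and Bmp4 than control 4. Without knockout 1, which had the highest extraembryonic ectoderm sum, the fold change of Fos was 2.42 (edgeR adjusted p = 0.395). The part of this tissue in the Fos values was not tested. Ezh2 controls had 0.203, 1.12 and 0.264 CPM of Fos and Ezh2-/- epiblasts 0.901, 1.19 and 0.381 CPM, and the groups overlapped. Control 2 was above knockouts 1 and 3. The log2 fold change was 0.64 (SE 0.79, edgeR adjusted p = 0.922). It ranged from 0.25 to 1.81 with 1 epiblast left out, and was 1.81 without control 2, the control with the most Fos.

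Fosb, a relative of Fos that also joins AP-1, was the member with the largest SD over controls 1 to 3 in log2(CPM + 0.5), 2.14 in the Ehmt2 and 1.21 in the Ezh2 cross. Its transcript (ENSMUST00000003640, chromosome 7 from 19302696 to 19310051, 4 exons) had 11.4, 0.148, 1.18 and 0.379 CPM in Ehmt2 controls and 1.87, 3.14, 1.69 and 0.0968 CPM in knockouts. A single control was above all knockouts. Fitted, the log2 fold change was -1.11 (SE 0.88, edgeR adjusted p = 0.680), and it turned to 0.85 without control 1. In Ezh2 controls Fosb had 0.0290, 1.33 and 2.11 CPM, and in Ezh2-/- epiblasts 0.612, 19.3 and 0.789 CPM. Knockout 2, with 697 counts, stood above all other epiblasts of the cross, which did not exceed 2.11 CPM. The log2 fold change of 2.58 (SE 1.29, edgeR adjusted p = 0.746) turned to -0.72 without knockout 2.

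Jun and Junb encode the partners of FOS in AP-1. Jun (ENSMUST00000107094, chromosome 4 from 95049034 to 95052222, 1 exon) had 6.98, 3.96, 2.44 and 5.00 CPM in Ehmt2 controls and 2.52, 8.98, 6.23 and 3.78 CPM in knockouts. The groups overlapped almost wholly, with a log2 fold change of 0.20 (SE 0.41, edgeR adjusted p = 0.896). Ezh2 controls had 4.64, 4.90 and 1.84 CPM of Jun and knockouts 5.02, 5.52 and 1.39 CPM (edgeR log2 fold change 0.07, SE 0.52, adjusted p = 0.991). An antisense gene, Junos, overlaps Jun in the annotation and had no listed transcript, and since the strand setting of the counting is not given in the sources used here, its reads could not be told from those of Jun. Junb (ENSMUST00000064922, chromosome 8 from 84976910 to 84978718, 1 exon) had 0.392, 0.529, 0.813 and 0.361 CPM in Ehmt2 controls and 2.32, 0.770, 1.46 and 0.468 CPM in knockouts. Knockouts 1 and 3 were above all controls, the others were not, and the log2 fold change was 1.14 (SE 0.55, edgeR adjusted p = 0.445). Knockout 1, with the highest Junb, also had the highest sum of extraembryonic ectoderm markers, 318 CPM. For Junb the Ezh2 values were 0.783, 1.24 and 0.205 CPM in controls and 0.901, 1.27 and 0.517 CPM in knockouts (edgeR log2 fold change 0.27, SE 0.71, adjusted p = 0.964).

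Atf3, a stress-induced factor of the ATF family, was the scarcest member. Its transcript (ENSMUST00000027941, chromosome 1 from 191170296 to 191183340, 4 exons) had 0, 1, 16 and 0 counts in Ehmt2 controls and 1, 38, 3 and 83 counts in knockouts. In knockouts 2 and 4 this was 1.08 and 1.34 CPM, whereas knockouts 1 and 3, at 0.0280 and 0.0766 CPM, were at or under 3 counts like 3 of the 4 controls. In Ezh2 controls the counts were 0, 49 and 1, and in knockouts 4, 5 and 10. The highest value of the cross, 1.45 CPM, was that of control 2, which also had the second highest sum of visceral endoderm markers. Fitted without the filter on low counts, the log2 fold change was 2.38 in the Ehmt2 cross (edgeR adjusted p = 0.584) and -1.43 in the Ezh2 cross (adjusted p = 0.854), and neither passed.

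Egr1 encodes a zinc finger transcription factor that ERK signalling induces through SRF. Its transcript is ENSMUST00000064795 (chromosome 18 from 34859823 to 34864984, 2 exons). Its levels were 6.61, 2.39, 2.02 and 8.60 CPM in Ehmt2 controls and 19.2, 10.2, 13.6 and 13.7 CPM in knockouts. Every knockout was above every control (2 of the 10 members did so, against 3.59% of the genes tested), and the closest pair was knockout 2 and control 4. Means were 14.2 ± 3.75 CPM in knockouts and 4.91 ± 3.23 CPM in controls (SD, n = 4). By edgeR the log2 fold change was 1.64 (SE 0.40) and did not pass (adjusted p = 0.102), whereas by DESeq2 it was 1.65 with an adjusted p of 0.000883. The exact permutation p on CPM was 0.0286, as for Fos and with the same limit. Knockout 1, with the highest Egr1, also had the highest extraembryonic ectoderm sum, and without it the fold change was 1.39 (edgeR adjusted p = 0.217). Knockout 4, where that sum was 21.3 CPM, had 13.7 CPM of Egr1 against 8.60 CPM in control 4. The part of this tissue in the Egr1 values was not tested. Over replicates 1 to 3 alone the fold change was 1.97 and passed (edgeR adjusted p = 0.0493). Egr1 levels in the Ezh2 cross were 0.812, 3.63 and 2.75 CPM in controls and 8.79, 27.8 and 2.31 CPM in knockouts. Knockouts 1 and 2 were above all controls, whereas knockout 3 was within them. The log2 fold change was 2.43 (SE 0.77, edgeR adjusted p = 0.566). Without knockout 2 the value was 1.204. Knockout 2 was the embryo with the highest Fosb as well, and knockout 1 the one with the highest visceral endoderm sum.

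Ier2, a nuclear protein of the early response, was the one member with lower values in all 7 knockouts. Its transcript (ENSMUST00000060427, chromosome 8 from 84661331 to 84662852, 1 exon) had 6.58, 6.76 and 8.05 CPM in Ezh2 controls and 5.02, 4.57 and 5.03 CPM in Ezh2-/- epiblasts. Every knockout was below every control, which held for 1 of the 10 members and for 6.47% of the genes tested, whereas no member had every Ezh2-/- value above every control, against 7.71%. The log2 fold change was -0.55 (SE 0.23, edgeR adjusted p = 0.691), and p was 0.1 in the exact permutation test, which cannot go lower with 3 against 3. In the Ehmt2 cross Ier2 had 7.00, 6.07, 7.24 and 13.1 CPM in controls and 5.48, 6.16, 4.62 and 10.2 CPM in knockouts, and the groups overlapped. On the log2 scale the fold change was -0.33 (SE 0.20, edgeR adjusted p = 0.554), and no member had every Ehmt2-/- value below every control, against 2.63% of the genes.

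Dusp1 and Zfp36 belong to the feedback arm. DUSP1 is a phosphatase that inactivates the p38, JNK and ERK kinases, and ZFP36 binds AU-rich elements and directs early response mRNAs to decay. The Dusp1 transcript used (ENSMUST00000126178, chromosome 17 from 26505591 to 26508474, annotated as a retained intron) carried nearly the same counts as the protein-coding isoform, whose mean count was 97.8% of it. It had 10.4, 9.96, 12.3 and 8.73 CPM in Ehmt2 controls and 14.9, 17.9, 22.8 and 11.5 CPM in knockouts. Knockouts 1 to 3 were above all controls and knockout 4 was above control 4, the control of its set. By edgeR the log2 fold change was 0.68 (SE 0.18) and did not pass (adjusted p = 0.154), and by DESeq2 its adjusted p was 0.0216 at a fold change under the 1.4 required. Ezh2 controls had 13.0, 8.62 and 10.2 CPM of Dusp1 and knockouts 12.0, 11.8 and 14.5 CPM (log2 fold change 0.26, SE 0.22, edgeR adjusted p = 0.863). Zfp36 (ENSMUST00000051241, chromosome 7 from 28376784 to 28380253, 2 exons) had 10.3, 8.25, 11.2 and 12.5 CPM in Ehmt2 controls and 19.5, 11.7, 17.5 and 11.6 CPM in knockouts. Knockouts 1 and 3 were above all controls, and knockout 4 was below control 4. Its fold change was 0.51 on the log2 scale (SE 0.22, edgeR adjusted p = 0.406). Zfp36 overlapped in the Ezh2 cross as well, with 11.5, 9.95 and 7.64 CPM in controls and 16.2, 9.04 and 7.70 CPM in knockouts (log2 fold change 0.18, SE 0.30, edgeR adjusted p = 0.947). An antisense gene, Gm44710, overlaps Zfp36 and had no listed transcript, so the limit given for Jun holds here too.

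Myc is a growth regulator that mitogens induce early and that proliferating cells also express steadily. Its transcript (ENSMUST00000022971, chromosome 15 from 61985391 to 61990350, 3 exons) had the same counts as a second isoform in every library. Levels were 41.1, 31.3, 45.3 and 38.9 CPM in Ehmt2 controls and 27.2, 29.4, 38.0 and 28.3 CPM in knockouts. Knockouts 1, 2 and 4 were below all controls and knockout 3 was within them, with a log2 fold change of -0.35 (SE 0.15, edgeR adjusted p = 0.409). Ezh2 controls had 42.1, 36.0 and 46.9 CPM of Myc and knockouts 39.4, 43.1 and 48.9 CPM, which overlapped (log2 fold change 0.07, SE 0.15, edgeR adjusted p = 0.954).

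Each knockout was then compared with the controls of its own set as a difference in log2(CPM + 0.5), a scale that understates the differences of scarce genes such as Fos and Atf3. In the 4 Ehmt2-/- epiblasts the Fos difference was 1.48, 1.62, 1.33 and 1.76, first or second among the 10 members in each. The median of the other 9 members was 0.02, 0.63, 0.55 and -0.11 in the same embryos, and members of both signs stood behind it, with 6, 8, 6 and 5 of the 10 positive. Egr1 differed by 2.41, 1.52, 1.92 and 0.64. Junb and Dusp1 were also positive in all 4, at 0.17 to 1.41 and 0.37 to 1.04, and Ier2 and Myc were negative in all 4, at -0.50 to -0.12 and -0.51 to -0.03. Fosb, Jun and Atf3 were positive in 2 of the 4 and Zfp36 in 3. Atf3 had the largest difference of knockout 4, 1.88, and one of 1.35 in knockout 2. In the 3 Ezh2-/- epiblasts the Fos difference was 0.55, 0.83 and -0.12, and those of Egr1 were 1.84, 3.44 and 0.11. Fosb, at 3.86, had the largest difference of knockout 2, and in knockout 3 no member differed by more than 1.4. Of the 70 differences, 11 were beyond 1.4, all 11 of them positive. Fos and Egr1 gave 3 each in the Ehmt2 cross, and Egr1 gave 2 in the Ezh2 cross. Junb, Atf3 and Fosb gave 1 each. The same share over all genes was not taken, so the count only describes these members. It was 5 with a pseudocount of 1 CPM and 13 with one of 0.1 CPM in place of 0.5.

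**Figure D3:**
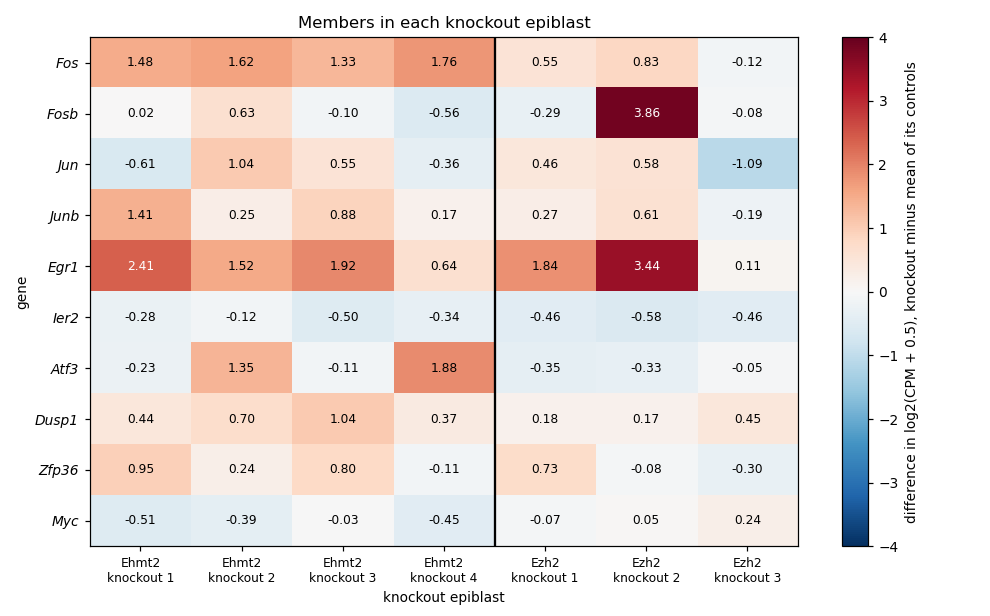
Difference in log2(CPM + 0.5) between each knockout epiblast and the mean of the controls of its set, for 10 genes (rows) and 7 knockouts (columns); red is higher and blue lower in the knockout. The Fos row is between 1.33 and 1.76 in the 4 Ehmt2-/- columns, and the largest cell, 3.86, is Fosb in Ezh2 knockout 2.

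A rule modelled on that of the study asked for a fitted log2 fold change beyond 1.4 in every knockout, with a combined p under 0.05 without adjustment. It also asked for a scaled count of at least 5 in each knockout, whereas the study set its floor on reads per kilobase of transcript. Fos was the single member of the 9 to meet it in the Ehmt2 cross, against 0.887% of the genes tested, and it no longer met it without control 2, the control with a Fos count of 0. The fitted log2 fold changes of Fos in knockouts 1 to 3 were 2.14, 2.31 and 1.94. In knockout 4 it was 3.13, a value that rests on control 4 alone. Egr1 met the rule together with Fos once knockout 4 was left out. The rule is then easier to meet, and over all transcripts 669 met it as higher, against 282 with every knockout. In the Ezh2 cross none of the 9 members met it, against 0.857% of the genes. Egr1 met it without knockout 3, a fit in which 472 transcripts met it as higher, against 290 with every knockout. Whether the knockouts of G9a and EZH2 had different effects was tested by the interaction of cross and genotype over all 14 epiblasts, in which Atf3 was included. None of the 10 members passed at an adjusted p under 0.05, against 0.118% of 15213 genes. None had an unadjusted p under 0.05 either, beside 1574 of the 15213 genes, so 0 of 10 is no result about the members. The effect in the Ehmt2 cross minus that in the Ezh2 cross was 1.74 for Fos (SE 1.26, edgeR adjusted p = 0.762), -0.79 for Egr1 (SE 0.91, adjusted p = 0.867) and -3.68 for Fosb (SE 1.76, adjusted p = 0.604), on the log2 scale.

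Among epiblasts of the same group, deviations of Fos from the group mean were compared with those of the other members over 12 epiblasts, replicates 1 to 3 of each of the 4 groups, in log2(CPM + 0.5). Pearson's r was 0.72 with Fosb and 0.72 with Egr1, and Spearman's rho was 0.68 and 0.72. The exact permutation p of r within groups was 0.0579 and 0.0316, and both were 0.260 after adjustment over the 9 pairs; for rho the exact p was 0.0795 and 0.0556 and the adjusted value 0.238. Without Ehmt2 control 1 and Ezh2 control 2, the 2 epiblasts farthest from the median in Fos, r was 0.68 with each. With Jun r was 0.56 and rho 0.71 (exact permutation p = 0.106 and 0.0278, adjusted 0.319 and 0.238), and r was 0.44 without those 2 epiblasts. With Dusp1 r was -0.47 and rho -0.39 (exact permutation p = 0.147 and 0.224, adjusted 0.332 and 0.432), and with Atf3, Junb, Zfp36, Ier2 and Myc r was between -0.12 and 0.41. None of the 9 pairs passed after adjustment.

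**Figure D4:**
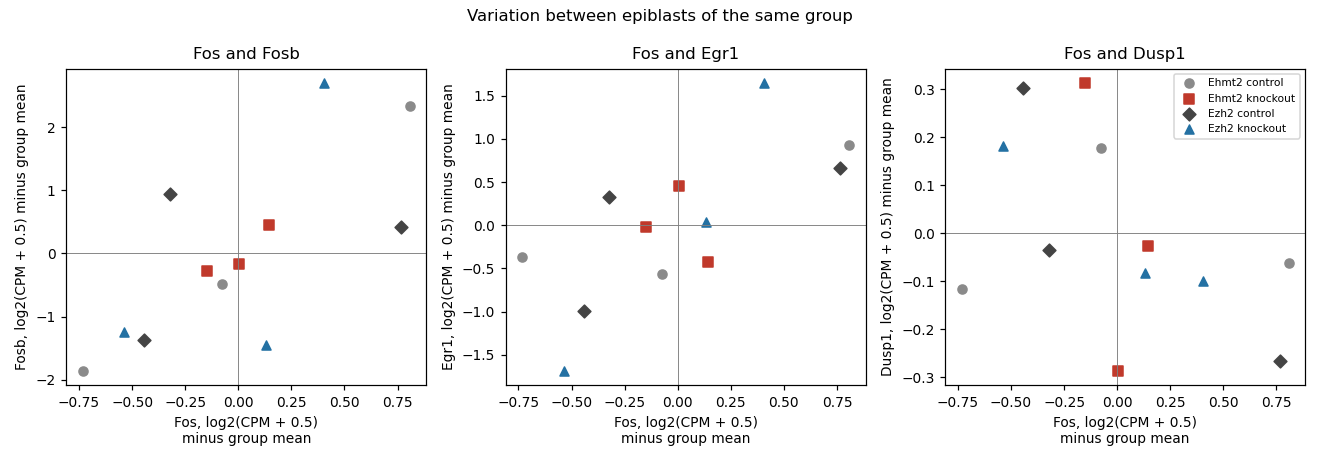
Deviation of Fos (x axis) and of Fosb, Egr1 or Dusp1 (y axis) from the mean of the epiblast's own group, both in log2(CPM + 0.5), for the 12 epiblasts of replicates 1 to 3; symbols mark the 4 groups. Pearson's r is 0.72 with Fosb and with Egr1 and -0.47 with Dusp1, and none of these passed after adjustment over the 9 pairs (exact permutation, adjusted p = 0.260, 0.260 and 0.332).

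Over all 14 epiblasts and 13348 genes tested in both crosses, the genes whose level was most like that of Fos were Sohlh2 (Pearson's r = 0.916), Ldoc1 (0.884), Gm17067 (0.869), Platr16 (0.864) and Xlr3a (0.863). These values are descriptions, across epiblasts that share crosses and genotypes. Egr1 was the nearest member, at r = 0.766 and rank 52, and Junb, Zfp36 and Dusp1 followed at 0.542, 0.532 and 0.495. Fosb was at 0.398 and Myc at -0.544. The r of Dusp1 was positive over these 14 epiblasts and -0.47 within groups over 12 epiblasts. The value within groups did not pass, and the contrast between the 2 values was not tested.

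In 4 further lists, of pathway genes and of heat shock genes, 0 genes passed by edgeR in either cross. Over all genes the shares were 0.851% in the Ehmt2 and 0.00714% in the Ezh2 cross, so 0 is no result about these lists. The 20 other early response transcription factors include the remaining AP-1 subunits, the EGR and NR4A families and KLF factors. Of these, 12 were tested in the Ehmt2 cross and none had an unadjusted p under 0.05, beside 15.4% of all genes. Their median log2 fold change was 0.34 there and 0.01 in the Ezh2 cross. Klf6, the most abundant of them, had a log2 fold change of 0.28 (SE 0.15, edgeR adjusted p = 0.519) and -0.17 (SE 0.23, adjusted p = 0.931). Of 28 other feedback and stress genes, 8 had higher and 1 lower values in Ehmt2-/- epiblasts at an unadjusted p under 0.05, beside the 15.4% of all genes. In the Ezh2 cross 2 of the 27 tested were higher and 1 lower, beside 8.89% of all genes. The median log2 fold change was 0.28 and -0.10 in these crosses. Plk2, a kinase induced by serum and stress, was the one gene of these lists to meet the per-embryo rule, in the Ehmt2 cross. It had 1.32, 0.212, 3.28 and 0.0721 CPM in controls and 7.89, 18.0, 7.61 and 28.0 CPM in knockouts, which did not overlap (log2 fold change 3.68, SE 0.89, edgeR adjusted p = 0.105). Plk2 in the Ezh2 cross had 4.17, 0.620 and 1.43 CPM in controls and 1.93, 2.38 and 4.93 CPM in knockouts (log2 fold change 0.57, SE 0.63, adjusted p = 0.903). Mcl1, a survival factor and the most abundant of this list, differed by -0.08 (SE 0.14) in the Ehmt2 and -0.14 (SE 0.13) in the Ezh2 cross. Btg2, an antiproliferative gene chosen here after its values were seen, had 1.79, 4.02, 4.36 and 1.44 CPM in Ehmt2 controls and 5.90, 13.1, 7.23 and 9.70 CPM in knockouts (log2 fold change 1.70, SE 0.38, edgeR adjusted p = 0.0832). By DESeq2, Plk2 and Btg2 passed both thresholds, beside 2.12% of all genes, so 2 is no result about these lists.

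Of the 20 upstream kinases and promoter factors, which include ERK, JNK and p38 and the SRF, ELK and CREB factors, 3 had higher values at an unadjusted p under 0.05 in Ehmt2-/- epiblasts, and 2 higher and 2 lower in Ezh2-/- epiblasts, beside the same 15.4% and 8.89% of all genes. The first share is near that of all genes. Their medians were 0.10 and -0.02, and their fold changes spanned -0.36 to 1.06 and -0.46 to 1.26. Braf, the most abundant, had a log2 fold change of 0.06 (SE 0.12) and -0.04 (SE 0.11). The 11 heat shock genes, which mark another stress response, had medians of 0.05 and 0.02 over the 10 and 9 tested, and 1 and 0 of them had an unadjusted p under 0.05, against those same shares. Hspa8, the most abundant, differed by 0.11 (SE 0.08) and -0.13 (SE 0.08). Summed heat shock levels were 5620 to 6358 CPM in Ehmt2 controls and 5441 to 6914 CPM in Ehmt2-/- epiblasts, which overlap.

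**Figure D5:**
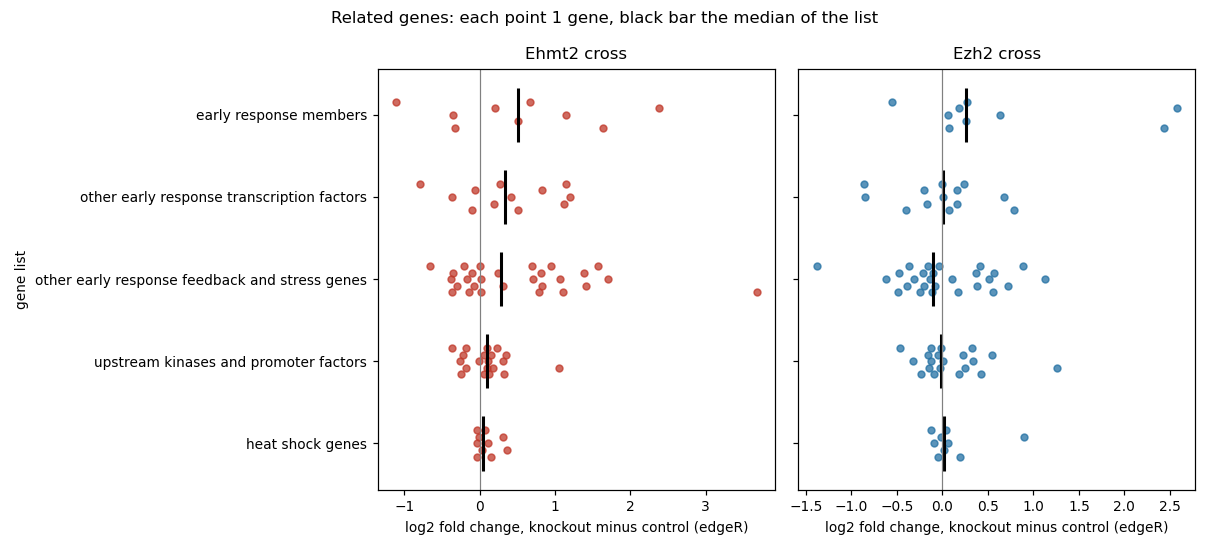
Log2 fold change, knockout minus control, of each tested gene of the members and of 4 related lists in the Ehmt2 cross (left) and the Ezh2 cross (right); black bars are list medians. In the Ehmt2 cross the medians fall from 0.51 for the members through 0.34 and 0.28 to 0.10 for upstream factors and 0.05 for heat shock genes.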

How the data were processed

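RNA of each epiblast was amplified from picogram amounts (Ovation RNA-seq System V2) and sequenced from single ends. The authors trimmed reads to 40 nt, aligned them with TopHat2 to GRCm38/mm10 and deposited HTSeq-count counts per Ensembl release 74 transcript, not normalised; versions and strand setting are not given in the sources used here. A transcript without a listed count was given 0. In both replicate 4 libraries of the Ehmt2 cross a row of unaligned reads (12.6% and 13.3% of the table) was left out of library sizes. Of 72515 transcripts, 70021 (96.6%) matched GENCODE vM21 by identifier.

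Each cross was fitted alone with edgeR 4.0.16 (filterByExpr, TMM, glmQLFit, glmQLFTest; R 4.3.3), the Ehmt2 cross with a term for replicates 1 to 3 against replicate 4. Columns of the study's source table name knockout 4 against control 4, whereas its methods set each knockout against all controls, which the fit without this term follows. P-values were adjusted by Benjamini-Hochberg over all transcripts tested, 49872 and 50855, while background shares count 1 transcript per gene. Standard errors were taken as the fold change over the root of the F statistic. A transcript was called at an adjusted p under 0.05 and a log2 fold change beyond 1.4. P-values of the group fits measure the spread between embryos. In the per-embryo rule each knockout has its own coefficient, so its p-values measure only the spread between controls 1 to 3. They share controls, whereas the combined p treats them as independent. Single members were compared in 20 unadjusted exact permutation tests (scipy 1.17.1), which took no account of the sets. DESeq2 1.42.0, RLE scaling, no filter, 1 transcript per gene, gene sums, a replicate block, and leaving out each library were the alternatives. The code was tested on simulated counts. Promoters are RefSeq windows. Chromatin and methylation files were not used.

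The members and lists were chosen with earlier results of these data known. Named genes are all members, the genes of each list that were called or met the per-embryo rule, the most abundant gene of each list, marker lists included, the 5 genes most like Fos, and both targeted genes.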

Additional observations from a re-analysis of the deposited data

Results flagged for a closer look

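Among 20 groups of 4 epiblasts examined, 1 held an epiblast far from the other 3, and chance alone gives about 1 in 20. Atf3 in Ehmt2 control 3, at 0.420 CPM and 16 counts, was above the other 3 controls, which had 0, 1 and 0 counts. The same epiblast was also the highest control for Junb, Dusp1 and Myc, at 0.813, 12.3 and 45.3 CPM, and not for the other 6 members. No member had every Ehmt2-/- epiblast on one side and every Ezh2-/- epiblast on the other side of its controls.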

How the results depend on the processing

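No member passed in the Ezh2 cross or in the test of the difference between crosses under any setting tried. In the Ehmt2 cross the count of members that passed was 1 with DESeq2, 1 without the filter on low counts and 1 over replicates 1 to 3 only, in each case Egr1 (adjusted p = 0.000883, 0.0363 and 0.0493), and 0 to 1 when 1 epiblast was left out, again Egr1, without control 4 or knockout 4 (adjusted p = 0.0465 for each). Pathway genes that passed numbered 2 with DESeq2 and 2 without the filter (Plk2 and Btg2), 3 over replicates 1 to 3 only (Fosl2, Bhlhe40 and Plk3) and 0 to 3 with 1 epiblast left out. In the main fit 12, 28, 20 and 10 genes of the 4 lists were tested. Over all transcripts, 391 higher and 45 lower of 50716 passed over replicates 1 to 3 only, against 220 and 29 of 49872 in the main fit. Counts this small are no result about the lists. The per-embryo rule, with leave-one-out fits added after seeing the data, gave 0 to 2 members in the Ehmt2 cross (none without control 2) and 0 to 1 in the Ezh2 cross. In each of these leave-one-out fits more transcripts met the rule than with every epiblast kept. The fit without Ehmt2 control 4 could not be made, since knockout 4 then has no control of its set. Of the 70 per-embryo differences, 11 were beyond 1.4 with a pseudocount of 0.5 CPM, 5 with 1 CPM and 13 with 0.1 CPM. The cause of these shifts was not tested. The Fos fold change ranged from 1.97 to 3.50 in the Ehmt2 and from 0.25 to 1.81 in the Ezh2 cross with 1 epiblast left out. Values that reversed lay near 0 or rested on 1 epiblast: over fits without 1 epiblast, Fosb ranged from -1.59 to 0.85 and Jun from -0.14 to 0.50 in the Ehmt2 cross, Fosb from -0.72 to 3.34, Jun from -0.27 to 0.47, Junb from -0.17 to 0.86, Zfp36 from -0.21 to 0.38 and Myc from -0.024 to 0.16 in the Ezh2 cross, and the Egr1 difference between crosses from -1.29 to 0.43. The correlation of Fos with Myc was 0.058 with a pseudocount of 0.1 CPM.

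Same-numbered controls and knockouts did not deviate together in every pair (correlations across transcripts of -0.0089, -0.0027 and 0.031 in replicates 1 to 3 and 0.42 in replicate 4 of the Ehmt2 cross, and 0.03, -0.18 and 0.23 in the Ezh2 cross), so numbers were not taken to pair embryos. With a replicate block, 0 members passed in either cross, Fos differed by 2.97 and 0.87, and Jun in the Ezh2 cross turned to -0.030. Over all transcripts the block left 99 higher and 6 lower in the Ehmt2 cross, against 220 and 29 without it, 544 and 192 with DESeq2, 395 and 65 without the filter, and 51 and 1 without the term for the set. In the Ezh2 cross 0 higher and 6 lower became 153 and 25 with DESeq2. At 0 to 12 counts in 3 of 4 controls, depth limits the fold change of Fos in the Ehmt2 cross, and that of Atf3 in both.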
